A study of Mus musculus with 2 samples.

Results

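The 10 genes described here encode heat shock chaperones, and they were chosen by name: Hspa1a, Hspa1b, Hspa8, Hsph1, Dnajb1, Hspb1, Hsp90aa1, Hsp90ab1, Hspe1 and Hspd1. All 10 were found among the 21849 genes counted in both libraries. Heat shock proteins bind unfolded or partly folded proteins and help them to fold, to stay soluble or to be degraded. HSP70 proteins work in cycles of ATP hydrolysis with J-domain partners, which deliver the client, and with HSP110 proteins, which exchange the nucleotide, while HSP90 acts later on clients such as kinases and steroid receptors. Some of these genes are transcribed in all cells, and others are switched on within minutes of protein damage, when heat shock factor 1 (HSF1) forms trimers and binds repeated GAA units in their promoters. Hspe1 and Hspd1 encode the chaperonins HSP10 and HSP60 of the mitochondrial matrix, so that only the remaining 8 genes encode cytosolic chaperones.

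Costal-cartilage-derived stem cells (CDSCs) had been isolated from ribs of newborn mice by repeated digestion with collagenase at body temperature, and sorted as CD45- and CD51+ cells. The mice carried either the CD45.1 allele or the ZsGreen reporter on a C57BL/6J background, and no genotype was given for a single library. Single-cell RNA sequencing covered primary CDSCs and CDSCs expanded in culture, taken at passages 2 to 3, with 1 library for each. The labels name bone marrow as the tissue and CDSCs as the cell type of both, and neither the number of animals nor that of cultures was given for the libraries. The time from digestion to capture of the primary cells was not given for this library.

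Transcripts were counted by unique molecular identifiers (UMIs), and levels are given as counts per 1000000 UMIs (CPM) of the summed cells of a library. Barcodes with 500 genes and 1000 UMIs or more, of which no more than 10% were mitochondrial, were kept. This left 11746 primary and 5338 cultured cells, with medians of 10026.5 and 56864.5 UMIs. The filter left out 1.26% of the primary and 50.6% of the cultured barcodes, and 5336 of the 5460 cultured barcodes left out had fewer than 1000 UMIs. Barcodes shared by both libraries numbered 32. Chondrocyte markers separated the libraries: all 15 markers on the list were lower in cultured cells by 4-fold or more, Col2a1 at 53268 CPM against 490 CPM and Acan at 1954 CPM against 2.51 CPM. The sort marker CD51 (Itgav) was at 92.5 and 109 CPM, and CD45 (Ptprc) was at 0.620 and 0.345 CPM. ZsGreen had 60957 counts in the primary and 0 counts in the cultured library, and the Y-linked gene Uty had 11 and 20195 counts. The libraries therefore differed in the animals they came from as well as in culture, and these cannot be told apart. Since each group was a single library, replicate spread could not be estimated and nothing was tested, and all intervals below are exact 95% intervals that cover counting error only.

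Promoters are shown first, because HSF1 is known to bind repeated GAA units in those of stress-inducible genes. The sequences are from RefSeq on the GRCm38.p6 build, in windows from 250 bases before to 50 bases after each transcript start, which were given for 7 of the 10 genes and not for Hspa8, Hsp90aa1 and Hsp90ab1. Both strands were searched for adjoining GAA units in alternating orientation. Only exact units were counted, so a run with a mismatch in a unit was missed or counted as a shorter one. The shortest form, with 2 units, reads GAANNTTC or TTCNNGAA, and is part of every longer form. In the following windows of 150 bases that end just before the start, the 2-unit matches are in capitals. Hspa1a and Hspb1 stand for the inducible HSP70 genes and for the small heat shock protein:
Hspa1a, chr17:34972157-34972306, minus strand: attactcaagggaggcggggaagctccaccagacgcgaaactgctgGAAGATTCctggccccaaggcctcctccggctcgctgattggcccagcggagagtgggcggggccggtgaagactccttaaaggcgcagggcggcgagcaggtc
Hspb1, chr5:135887769-135887918, plus strand: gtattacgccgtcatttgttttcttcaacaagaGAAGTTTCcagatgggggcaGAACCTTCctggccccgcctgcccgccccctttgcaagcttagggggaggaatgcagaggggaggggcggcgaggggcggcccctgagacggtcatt

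The match in Hspa1a began 104 bases before the start, and the same 8 bases lay at the same distance in Hspa1b. The promoter windows of these neighbouring genes were identical at 296 of 300 positions. The matches in Hspb1 began 117 and 97 bases before the start. A 2-unit match is common: it was found in 15.1% of all 32851 windows and in 17.0% of the 27025 genes with a window, and 6 of the 7 chaperone genes with a window held it, all but Dnajb1.

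Longer runs of exact units were rare. Longer runs with a mismatch were not searched for, in Hspa1a and Hspa1b or elsewhere. Runs of 3 units were found in 198 windows, or 0.603% of them, and in 3 of the 7 chaperone genes, Hsph1, Hspe1 and Hspd1. Of the 57 genes with a window on 8 lists of other chaperone, co-chaperone and ubiquitin genes, 2 held such a run, Dnajb6 and Chordc1. A run of 4 units was found in 8 of the 27025 genes, and Hspe1 and Hspd1 are among them. These genes lie head to head on chromosome 1, with starts 216 bases apart, and share a single run of 18 bases, which begins 89 bases before the start of Hspe1 and lies within the annotated 5′ untranslated region of a longer Hspd1 transcript. The shared element and the run in the 5′ untranslated region of Hsph1, both with the units in capitals, read as follows:
Hspe1, chr1:55088059-55088076, plus strand: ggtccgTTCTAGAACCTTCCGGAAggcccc
Hsph1, chr5:149636288-149636300, minus strand: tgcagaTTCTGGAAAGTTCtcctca
A match is a stretch of letters, and binding was not measured.

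The inducible HSP70 genes were far lower in the cultured library. Hspa1a (ENSMUSG00000091971) and Hspa1b (ENSMUSG00000090877) lie next to each other on chromosome 17 and encode nearly the same protein, the HSP70 that cells make under stress. Hspa1a was at 276 CPM (interval 273 to 278) in primary and at 3.41 CPM (3.22 to 3.62) in cultured cells, a log2 ratio of cultured over primary of -6.33 (-6.42 to -6.25). Hspa1b was at 119 CPM (117 to 120) in primary and at 2.45 CPM (2.29 to 2.63) in cultured cells, a log2 ratio of -5.59 (-5.70 to -5.49). Their longest open reading frames were 99.4% identical, while the last 300 bases of the transcripts, from which 3′ libraries are read, aligned with 50.1% identity. Reads that fit both genes are not counted for either, so the split between them is uncertain, and their sum is given beside each. Summed, they were at 394 CPM in primary and 5.87 CPM in cultured cells, a 67.2-fold difference and a log2 ratio of -6.07 (-6.14 to -6.0).

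Dnajb1, the J-domain protein HSP40 that partners inducible HSP70, was at 427 CPM in primary and at 42.0 CPM in cultured cells. That is 10.2-fold lower in the cultured library, with a log2 ratio of -3.35 (-3.37 to -3.32). Hsph1, the HSP110 nucleotide exchange factor, was at 171 and 95.1 CPM, a log2 ratio of -0.84 (-0.87 to -0.82).

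The HSP70 gene that is always on behaved otherwise. Hspa8, which encodes HSC70, was at 1256 CPM in primary and at 1039 CPM in cultured cells, a log2 ratio of -0.27 (-0.28 to -0.27). The small heat shock protein gene Hspb1, whose product HSP27 (HSP25 in mouse) holds unfolded proteins without ATP, was at 165 and 192 CPM, a log2 ratio of 0.22 (0.20 to 0.24). With each cell weighing the same, its log2 ratio was -0.0044, so the libraries had no order for this gene that held under both scalings.

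The HSP90 and chaperonin genes were higher in the cultured library. Hsp90aa1, the more inducible of the cytosolic HSP90 genes, was at 486 CPM in primary and at 703 CPM in cultured cells, a log2 ratio of 0.53 (0.52 to 0.54). Hsp90ab1, the constitutive HSP90 gene, was at 1496 and 2565 CPM, a log2 ratio of 0.78 (0.77 to 0.78). Hspe1 was at 395 and 483 CPM, a log2 ratio of 0.29 (0.28 to 0.30), and its partner Hspd1 was at 148 and 304 CPM, a log2 ratio of 1.04 (1.02 to 1.06).

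**Figure D1:**
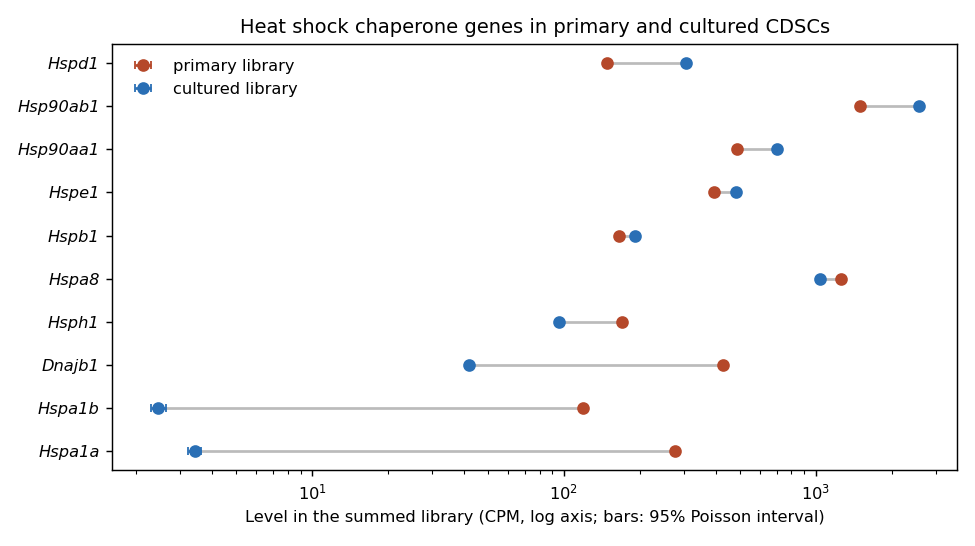
Level of each heat shock chaperone gene in the summed primary (red) and cultured (blue) library, in CPM on a log axis, with 95% Poisson intervals that are mostly smaller than the points. Hspa1a, Hspa1b and Dnajb1 stand far lower in the cultured library, while the other genes differ by about 2-fold or less.

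Of the 10 genes, 3 were lower in cultured cells by 2-fold or more, Hspa1a, Hspa1b and Dnajb1, beside 12.5% of the 9115 genes that reached 10 CPM in 1 of the libraries or both. All 3 were also at least 4-fold lower, beside 5.73% of those genes. Hspa1a and Hspa1b reached 10 CPM in the primary library alone, so their direction in these counts was fixed by that minimum. Dnajb1 reached it in both libraries. Hspd1 alone was at least 2-fold higher, beside 27.2% of those genes, and 0 of the 10 were at least 4-fold higher, beside 10.6%. The median log2 ratio was -0.03 over the 10 genes and 0.37 over the 9115 genes. Scaling by TMM, which sets the bulk of genes level, lowered the median of all genes by 0.21 to 0.16. Hsph1, at -1.04, then passed 2-fold and Hspd1, with 0.85, did not. Hsph1 also passed with each cell weighing the same, at -1.01. Among the 9115 genes, Hspa1a stood at percentile 0.900 of the log2 ratios, Hspa1b at 1.15, Dnajb1 at 3.01, Hsph1 at 14.7 and Hspd1 at 73.9.

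The sum of the 10 genes differed little. It was 4937 CPM in primary and 5428 CPM in cultured cells, a log2 ratio of 0.14 (0.13 to 0.14), and of -0.06 under TMM. Its composition differed more. Hspa1a and Hspa1b made up 7.98% of these UMIs in primary and 0.108% in cultured cells, Dnajb1 8.65% and 0.773%, and Hspa8 25.4% and 19.1%, whereas Hsp90ab1 made up 30.3% and 47.3%. The counts of gene partners also stood in other proportions. There were 2.67 Hspe1 UMIs per Hspd1 UMI in primary and 1.59 in cultured cells, 0.325 and 0.274 Hsp90aa1 UMIs per Hsp90ab1 UMI, and 2.32 and 1.39 Hspa1a UMIs per Hspa1b UMI.

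Cells were then compared at equal depth, by drawing 5000 UMIs from each cell, which left 10959 primary and 4543 cultured cells and excluded 787 and 795 shallower ones. Hspa1a had a UMI in 32.7% (31.8 to 33.5) of primary and in 1.34% (1.03 to 1.72) of cultured cells, and in 42.3% and 15.3% before thinning. Hspa1b had a UMI in 2741 primary cells and in 54, or 1.19%, of cultured cells. At least 1 of the 2 genes was seen in 4537 primary cells, or 41.4%, and in 114 cultured cells, or 2.51%. No cell type was available that is known to lack these transcripts, so the part of free RNA in these shares was not tested. Dnajb1 had a UMI in 66.2% of primary and 17.6% of cultured cells, and Hsph1 in 32.0% and 35.5%, although its summed level was lower in the cultured library.

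The constitutive genes Hspa8 and Hsp90ab1 were seen in nearly all cells of both libraries. Hspa8 had a UMI in 98.8% of primary and 97.6% of cultured cells, and Hsp90ab1 in 99.7% and 99.8%. Hsp90aa1 was seen in 83.0% and 93.5%, Hspe1 in 81.1% and 86.9%, and Hspd1 in 49.9% and 72.7%. For Hspb1 the share was 24.4% in primary and 48.9% in cultured cells, at nearly equal summed levels.

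**Figure D2:**
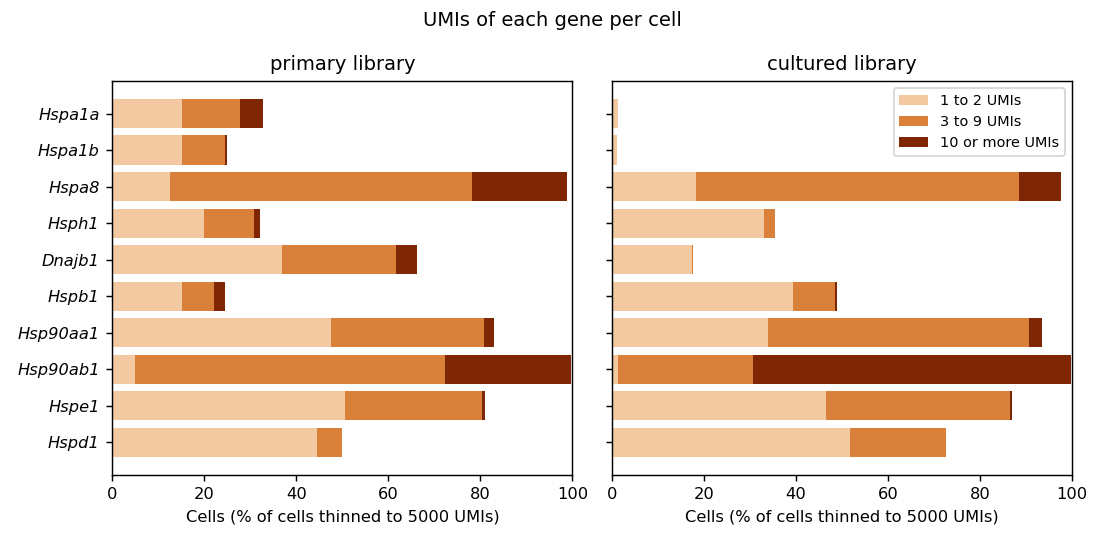
Share of cells with 1 to 2, 3 to 9, and 10 or more UMIs of each gene, in percent of the 10959 primary (left) and 4543 cultured (right) cells, each thinned to 5000 UMIs. Hspa1a and Hspa1b are nearly empty in the cultured library, and 4.85% of primary cells hold 10 or more UMIs of Hspa1a.

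The inducible genes were spread unevenly over the primary cells. The summed Hspa1a and Hspa1b UMIs had a mean of 2.33 per 5000 UMIs, a median of 0, a 99th percentile of 26 and a highest value of 59. The variance was 11.8 times the mean, where counting alone gives about 1. The 1096 primary cells with the most, which are 10% of the cells, held 64.9% of these UMIs, and 811 cells, or 7.40%, held 10 or more. In the cultured library the mean was 0.0269, the highest value was 5, the variance was 1.22 times the mean, and 0 of 4543 cells held 10 or more. At so low a mean this ratio is near 1 in any case, so it does not rank the libraries by evenness. The variance over the squared mean, which rises as the mean falls, was 6.03 for Hspa1a in primary and 90.8 in cultured cells.

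Hspb1 was uneven in another way. In primary cells its variance was 9.12 times the mean, and 10% of cells held 80.8% of its UMIs. In cultured cells the ratio was 4.30 and the share 44.9%, and a single cell held 101 UMIs. Without that cell the ratio was 1.92. Hsph1 and Dnajb1 had ratios of variance to mean of 4.68 and 5.19 in primary and of 1.24 and 1.07 in cultured cells. Their means were 0.928 and 2.33 UMIs in primary and 0.484 and 0.200 UMIs in cultured cells. Over the squared mean their variance was 5.05 and 2.22 in primary and 2.57 and 5.35 in cultured cells. For Hspa8 the ratios were 2.81 and 1.95, and for Hspd1 they were 1.26 and 1.40. For Hsp90ab1 they were 1.99 and 2.74, a ratio that grows with the mean, which was 7.72 and 12.5 UMIs. The 10% of cells with the most Hsp90ab1 held 20.5% and 18.8% of its UMIs.

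Primary cells with many Hspa1a and Hspa1b UMIs also had more of the other chaperones. From the 6422 cells with 0 such UMIs over those with 1 to 2 and 3 to 9 to the 811 cells with 10 or more, Hsph1 went from 70.1 over 148 and 369 to 819 CPM, which is 11.7-fold. Hspb1 went from 109 to 613 CPM, or 5.61-fold, and Dnajb1 from 348 to 1129 CPM, or 3.24-fold. Hsp90aa1 was 2.88-fold higher in the highest class than in cells with 0, Hspe1 2.12-fold, Hspa8 1.66-fold, Hspd1 1.61-fold and Hsp90ab1 1.46-fold. The co-chaperone Bag3, which links HSP70 to small heat shock proteins and autophagy, went from 136 to 307 CPM. All of these classes were at the same depth of 5000 UMIs.

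The sums of other stress gene lists differed less over the same classes. The 18 immediate early genes summed to 23821 CPM in cells with 0 and to 26981 CPM in cells with 10 or more, which is 1.13-fold, with Fos at 5675 and 5345 CPM and Atf3 at 1169 and 1416 CPM. The 14 chaperones of the endoplasmic reticulum summed to 2934 and 2798 CPM. The cells with 10 or more had a lower median depth before thinning, 7688 against 11020 UMIs, and a median mitochondrial share of 1.93% against 1.76%. Of the primary cells with 10 or more, 50.9% were in a single one of the clusters described below. The part of depth or of cluster membership in the pattern was not tested. In the cultured library 112 cells had 1 to 2 UMIs and 2 cells had 3 to 9. In the 112 cells Hsph1 was at 78.6 CPM against 97.4 CPM in the 4429 cells with 0, and Dnajb1 was at 42.9 against 39.9 CPM.

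**Figure D3:**
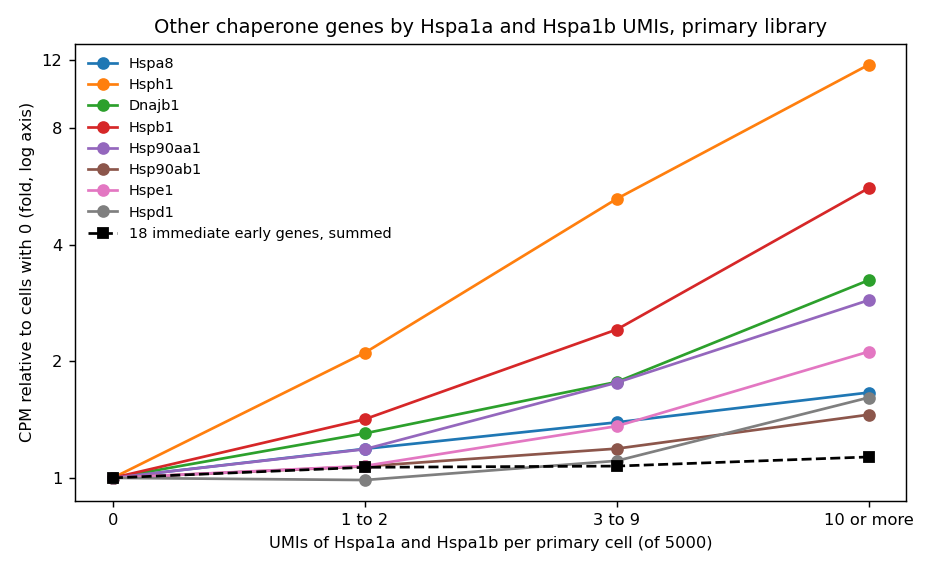
Level of the other 8 chaperone genes (circles) and of the summed immediate early genes (squares) in primary cells with 0, 1 to 2, 3 to 9, and 10 or more UMIs of Hspa1a and Hspa1b of 5000, relative to cells with 0 on a log axis. Hsph1 reaches 11.7-fold and Hspb1 5.61-fold, while the immediate early genes reach 1.13-fold.

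Correlations across cells were computed within each library. They are Pearson correlations of ln(1 + UMIs) over cells thinned to 5000 UMIs, which are cells of 1 library and not replicates, so they are given as a description. Over the 45 pairs of the 10 genes the median was 0.18 in primary cells, and 6 pairs were above 0.3. Hspa1a and Hspa1b had the highest value, 0.57, followed by Hspa1a with Hsph1 at 0.48 and Hspa1b with Hsph1 at 0.47. Hspa8 with Dnajb1 and Hsph1 with Hsp90aa1 were both at 0.32. In cultured cells the median was 0.01 and 0 of the 45 pairs were above 0.3. The highest value there was 0.27, for Hsp90aa1 with Hsp90ab1, and Hspa8 with Hsp90ab1 was at 0.23. Sparse genes give low correlations in any case, and Hspa1a and Hspa1b were nearly undetected in these cells.

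**Figure D4:**
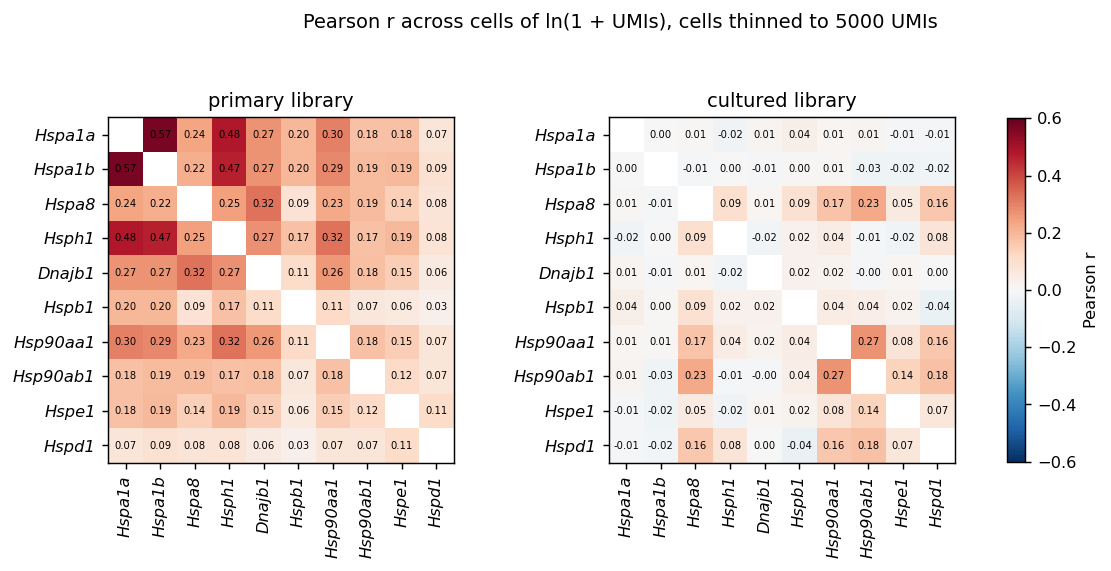
Pearson correlation of each pair of chaperone genes across the 10959 primary (left) and 4543 cultured (right) cells, after thinning to 5000 UMIs and taking ln(1 + UMIs), with colour and number giving r. Hspa1a, Hspa1b and Hsph1 form the block of highest values in the primary library, up to 0.57, and in the cultured library the highest value is 0.27.

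Among 7467 genes with a UMI in at least 5% of the thinned primary cells, the 10 chaperone genes left out, the 8 with the highest correlation with the summed Hspa1a and Hspa1b were Clu, Jun, Rhob, Klf2, Dnaja1, Cdkn1c, Sorbs2 and Scara3, with values from 0.37 down to 0.32. Jun, at 0.36, is on the list of immediate early genes below. Clu encodes clusterin, a secreted chaperone, and was at 602 CPM in primary and 31.3 CPM in cultured cells. Clu and Scara3 are also leading genes of the primary cluster with the most Hspa1a and Hspa1b, described below. The part of cluster membership in these correlations was not tested. Dnaja1 encodes another J-domain partner of HSP70, and was at 290 and 380 CPM. Among the 8356 genes compared in cultured cells the highest value was 0.09, too low to name a relation.

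The level of the inducible genes differed between clusters of primary cells. Clusters were formed for each library alone, without the 10 chaperone genes and the listed stress genes. In the primary library there were 10 clusters, of which 9 were chondrocyte-like and held 97.5% of the kept cells. The clusters are named here by leading genes. Summed Hspa1a and Hspa1b stood at 1279 CPM (1261 to 1297) in the 1850 cells led by Tll1, Clu and Ppargc1a, which also had Prg4 and Cilp2 among their leading genes. Next were the 2751 cells led by Cytl1, Wif1 and Klf2 with 604 CPM (595 to 614). An unnamed cluster of 290 cells, with mast cell genes (Tpsb2, Cma1, Mcpt4) and genes of fibrous tissue (Thbs4, Chodl, Col1a1) among its leading genes, was at 473 CPM (447 to 500). With 30 principal components there were a mesenchymal fibroblast-like cluster of 264 cells at 505 CPM, a mast cell-like cluster of 161 cells at 314 CPM and an endothelial-like cluster of 25 cells. Together these hold more cells than the 290. The mast cell-like cluster shares the leading gene Stat5b with the cells led by Gramd1b, described below. Which of the 290 cells each of them holds was not computed. With 10 principal components, the 792 cells led by Slc35f1, Runx3 and Wnt5b came next at 430 CPM (418 to 443).

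The other clusters were lower. The cluster of 946 cells led by Lars2 and Gfra1 was at 281 CPM, the 156 cells led by Gramd1b were at 207 CPM (183 to 233), the 187 dividing cells led by Pbk and Cenpf at 175 CPM (161 to 189), and the 1372 cells with Slc22a4 and Srxn1 among their leading genes at 171 CPM (166 to 178). Neighbours among these last 3 overlapped in their intervals. The 2148 cells led by Trf and Fam43a were at 148 CPM. The lowest level was 38.1 CPM (35.4 to 41.0), in the 1254 cells led by Aoc2, Acta1 and Grem1, with Acta2 and Eln among the leading genes. The highest and lowest clusters differed 33.6-fold. Their median depths were 7312.5 and 13584 UMIs, and that of the 156 cells led by Gramd1b was 7485.5 UMIs. The part of depth in these levels was not tested.

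Of the 811 primary cells with 10 or more Hspa1a and Hspa1b UMIs, 413, or 50.9%, were in the cluster led by Tll1 and Clu, which is 26.1% of its thinned cells. In the cluster led by Cytl1 there were 255, or 10.0% of its cells, and in the cluster led by Aoc2 there were 0 of 1237, which allows a share of up to 0.298%. Hspb1 was high in other cells in part. Of the 248 primary cells with 10 or more Hspb1 UMIs, 89 were among the 811, which is 35.9% of the former and 11.0% of the latter. For Hsph1, 83 of 134 such cells were among the 811.

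The other genes varied less between primary clusters. The highest and lowest clusters differed 20.8-fold for Hsph1, 7.42-fold for Hspb1, 5.28-fold for Dnajb1, 2.66-fold for Hsp90aa1 and 2.35-fold for Hspa8. For Hspe1 the range was 1.93-fold, for Hspd1 1.76-fold and for Hsp90ab1 1.47-fold. With 30 principal components in place of 10, the range of the summed inducible genes was 16.7-fold, and at resolution 1.0 it was 40.7-fold.

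In the cultured library the 7 clusters of at least 100 cells held summed Hspa1a and Hspa1b at 3.82 to 17.0 CPM, so that the highest cultured cluster was below the lowest primary one. The range was 4.44-fold, and 15.9-fold with 30 principal components, from 1.05 to 16.7 CPM. The highest was the mesenchymal fibroblast-like cluster of 180 cells, which had Thy1 and Ptn among its leading genes, with Hspa1a at 6.69 CPM and Hspa1b at 10.3 CPM. The lowest, with 22 counts, was a cluster of 873 shallow barcodes with a median of 1288 UMIs. The 802 dividing cells led by Aspm and Pbk had the highest levels of Hspd1, 415 CPM, of Hsp90aa1, 985 CPM, and of Hspa8, 1221 CPM, among the 7 clusters. At resolution 1.0 a cluster of 710 shallow barcodes had the highest Hspa8, 1762 CPM, and Hsp90aa1, 1373 CPM, in their place. Dnajb1 ranged from 33.0 to 48.1 CPM and Hsp90ab1 from 2258 to 2755 CPM.

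**Figure D5:**
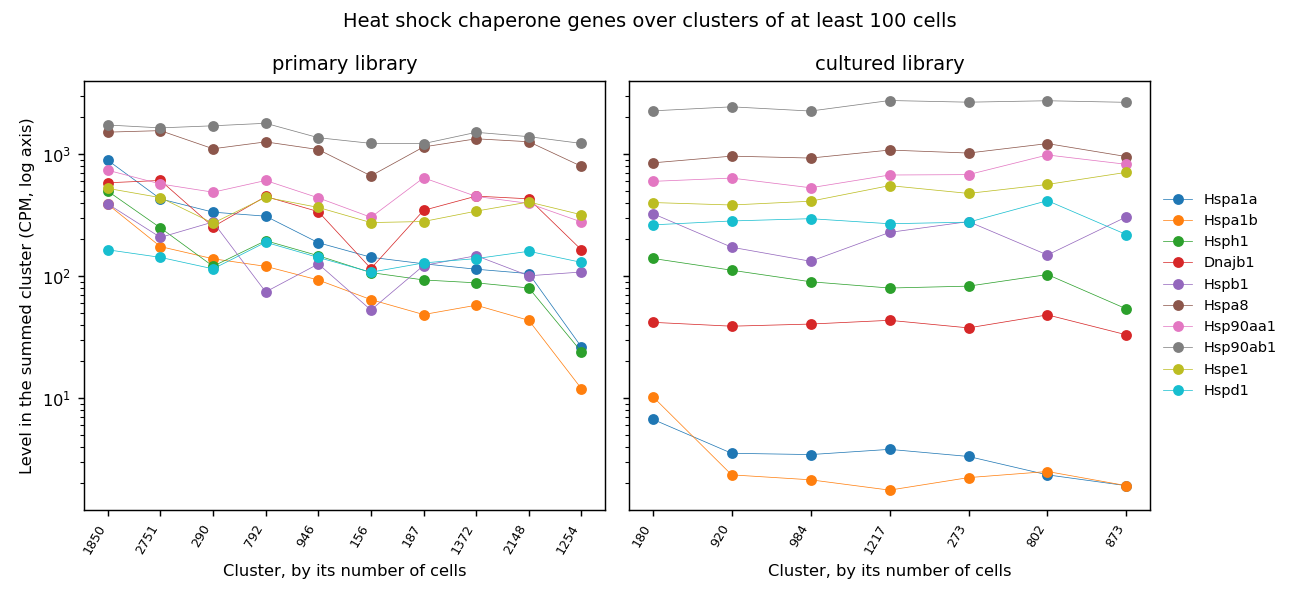
Level of each chaperone gene in clusters of at least 100 cells of the primary (left) and cultured (right) library, in CPM on a log axis, with clusters ordered by summed Hspa1a and Hspa1b and labelled with their number of cells. Hspa1a, Hspa1b and Hsph1 span more than 20-fold in the primary library, and Hsp90ab1 spans 1.47-fold.

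Most other genes of protein folding did not follow Hspa1a and Hspa1b in the ratio between the libraries. On the 8 lists of other chaperone, co-chaperone and ubiquitin genes, 64 of 72 genes reached 10 CPM in 1 of the libraries or both. Of these, 3 were lower in cultured cells by 2-fold or more, 13 were higher by as much, and 48 were within 2-fold. These are 4.69% and 20.3% of the 64, both below the shares of all genes, 12.5% and 27.2%. The median log2 ratio was 0.57 beside 0.37 for all genes. The 3 lower genes were Fkbp5, an HSP90 co-chaperone induced by glucocorticoids, at -1.37, Hspa2 at -1.07 and Bag3 at -1.03. Under TMM 5 genes were lower and 9 higher by 2-fold or more. Hsf1 itself was at 24.8 CPM in primary and 23.3 CPM in cultured cells.

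Among the other small heat shock proteins 3 of 6 reached 10 CPM, and Cryab and Hspb8 did so in the cultured library alone, so their direction was fixed by that minimum. Cryab, which encodes alpha-B crystallin, was at 6.83 CPM in primary and at 245 CPM in cultured cells, a log2 ratio of 5.16. Hspb8 was at 0.890 and 24.8 CPM, and Hspb6 at 16.1 and 48.9 CPM. Of the 3 below the minimum, Hspb2 was at 0.649 and 4.23 CPM, Hspb3 at 3 and 5 counts, and Hspb7 at 0.481 and 0.403 CPM. Smooth muscle genes, with which Cryab and Hspb6 are often expressed, were also higher in the cultured library: Acta2 was at 124 and 1227 CPM and Tagln at 38.5 and 1282 CPM. Of that list of 8, 4 genes had at least 10 CPM, of which 2 were higher and 2 lower, Cspg4 and Mcam. The part of these cells in the small heat shock proteins was not tested.

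Among HSP70 and HSP110 relatives Hspa4l, which passed the minimum in the cultured library alone, was at 4.54 and 30.4 CPM, and Hspa4 was at 224 and 295 CPM. All 14 subunits of the TRiC chaperonin and of prefoldin, which fold actin and tubulin, had log2 ratios above 0, as 64.5% of all genes had, with a median of 0.72, and only Pfdn1, with 1.25, was past 2-fold. Under TMM 11 of the 14 were above 0, all but Tcp1, Pfdn5 and Vbp1. Of 18 co-chaperones, 4, or 22.2% beside 27.2% of all genes, were at least 2-fold higher, Ahsa2 at 1.98, St13 at 1.30, Stip1 at 1.16 and Sugt1 at 1.07, and under TMM 2 of them were. Ahsa2 reached 10 CPM in the cultured library alone. Of the 8 mitochondrial matrix chaperones and proteases, Trap1 at 1.08 and Grpel1 at 1.02 were past 2-fold, a share near that of all genes, and under TMM neither was. Of 9 other J-domain genes at 10 CPM or more, 1 was past 2-fold, Dnajc2 at 1.49.

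Most of the 14 chaperones of the endoplasmic reticulum went the other way from the inducible HSP70 genes. Log2 ratios were above 0 for 12 of them, or 85.7%, beside 64.5% of all genes. Of the 14, 8 were higher in cultured cells by 2-fold or more, with a median log2 ratio of 1.18 over the list. Only Dnajb9, at -1.51, was lower by as much, and P4hb was also lower, at 566 CPM in primary and 408 CPM in cultured cells. The share that was higher, 57.1%, stands beside 27.2% of all genes, and the share that was lower, 7.14%, beside 12.5%. Sdf2l1 and Hyou1 reached 10 CPM in the cultured library alone, so their direction was fixed by that minimum. Under TMM 7 of the 14 were at least 2-fold higher. Hsp90b1, the HSP90 of this compartment, was at 277 CPM in primary and 1181 CPM in cultured cells, and Sdf2l1 was at 5.48 and 52.0 CPM.

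Immediate early genes, which cells switch on within minutes of many stimuli, dissociation of tissue among them, were lower in the cultured library together with Hspa1a, Hspa1b and Dnajb1. Of 18 such genes, 14 were at least 2-fold and 12 at least 4-fold lower, beside 12.5% and 5.73% of all genes, with a median log2 ratio of -2.67, and they summed to 23543 CPM in primary and 4026 CPM in cultured cells. Atf3 was at 1189 and 23.0 CPM and Fos at 5378 and 308 CPM, while Fosl2 was higher, at 79.9 and 178 CPM. Egr2, at 56.4 and 2.88 CPM, reached 10 CPM in the primary library alone, so its direction was fixed by that minimum. The part of cell handling in the levels of either group was not tested, and it cannot be told apart from culture, animals or library.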

How the data were processed

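Primary and cultured CDSCs (1 library each) had been prepared with the Chromium 3′ v3.1 kit from 20000 viable cells. Per the labels the deposited values are raw UMI counts from Cell Ranger 7.0.0, per gene and barcode. The study's methods give mm10/GRCm38 as the build, while the processing notes also name GRCm39, and coordinates here are on GRCm38. The annotation release is not given in the sources used here. Cell Ranger counts only reads that map to a single gene, so near-identical genes lose reads.

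The 10 genes, the gene lists and the settings were chosen with earlier results of these data known. Genes named from other lists are up to 4 highest and 4 lowest by log2 ratio per list with at least 10 CPM, and Hsf1, Hspa4, Dnaja1, Chordc1, Jun, small heat shock genes below 10 CPM, the marker genes and ZsGreen were taken up beyond that. Barcodes were filtered and summed as the text states, over 137148874 primary and 330129909 cultured UMIs. At this depth the count floor of 3 corresponds to 0.0219 and 0.00909 CPM, and counts under 3 were raised to 3 in ratios. Intervals are exact (Poisson, Clopper-Pearson, conditional) at 95%. Clusters are from the Leiden method (scanpy 1.11.5, leidenalg 0.10.2) on 2000 variable genes, 10 principal components and 20 neighbours at resolution 0.5. A cluster was named with at least 3 markers of a class at 50 CPM and a 4-fold excess, or chondrocyte-like with at least 3 chondrocyte markers at 1000 CPM. Scrublet called 0 and 1 doublets and had thus not worked, so doublets stayed in. TMM is from edgeR 4.0.16. The ratio and thinning code was tested on simulated data. Coordinates of genes are from GENCODE on GRCm38, and promoter sequences from RefSeq on GRCm38.p6.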

Additional observations from a re-analysis of the deposited data

Results flagged for a closer look

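Barcodes that the cell filter left out were looked at apart, because no comparison above uses them. In the 150 primary barcodes left out, Hspa1a and Hspa1b summed to 61 counts, or 290 CPM, and in the 5460 cultured barcodes left out they summed to 50 counts, or 7.94 CPM. Both values are above the limit that a count of 0 allows. The level was higher in the primary barcodes left out than in the cultured ones, as it was among the kept cells.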

How the results depend on the processing

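No paired analysis was possible because each group is 1 library, and leaving out a replicate was not possible for the same reason. Over the reported setting and 9 others for cells, doublets, depth and scaling, Hspa1a, Hspa1b and Dnajb1 were at least 2-fold lower in each, and 9 of the 10 genes kept their sign. The exception was Hspb1, which ranged from -0.0044 to 0.28. The setting for doublets left out the cells with the highest Scrublet scores. Since Scrublet had not worked, it cannot show how the values depend on doublets. The log2 ratio of summed Hspa1a and Hspa1b was -6.27 under TMM scaling, -6.20 with each cell weighing the same and -6.44 in thinned cells. That of the 10 genes summed was 0.143 under a stricter cell filter and 0.143 in cells of at least 5000 UMIs, -0.060 under TMM, 0.196 without mitochondrial and ribosomal protein genes in the totals, 0.10 with each cell weighing the same and 0.029 in thinned cells. Under TMM 0 of the 10 genes were at least 2-fold higher and 5 other chaperone genes were at least 2-fold lower. The 10% of primary cells with the most Hspa1a and Hspa1b UMIs held 67.7% of them at 2000 UMIs per cell and 66.6% without the highest Scrublet scores. Of all genes past 2-fold, 68.5% were higher in the cultured library, and 58.5% were under TMM. Leaving out the cultured cluster of shallow barcodes, an alternative chosen after seeing the data, gave -6.06 for Hspa1a and Hspa1b and moved none of the counts above. Intervals cover counting error only, and the spread between replicates is unknown.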
